A study of Homo sapiens with 6 samples.

Results

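The peaks described here lie in gene deserts, the long stretches of chromosome that hold no protein-coding gene. A peak was a member when it lay on chromosomes 1 to 22, its centre fell outside every protein-coding gene body of GENCODE release 44, and the centre was more than 250 kb from every transcription start site of a protein-coding gene. Of the 152800 peaks in the table, 13253 (8.67%) met this rule, which used position only. The autosomes hold 716 stretches where the rule can be met, 657 Mb in all, and 658 of them contained at least 1 member. The median stretch with members was 449 kb long and held 12 members. In what follows such a stretch is called a desert and is named by the protein-coding genes on its left and right.

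The libraries came from A375, an established human melanoma line, in 2 conditions. The empty vector cells were the control, and the HMGB2OE cells carried a lentiviral construct that overexpresses HMGB2, a chromatin protein that bends DNA. Both were stable lines made by lentiviral transduction, and the number of separate cultures of each is not stated. Each condition had 3 libraries, which the study describes as technical replicates of an experiment done once, so every p-value below measures the spread between such libraries and not between independent cultures. The assay was ATAC-seq, in which the Tn5 transposase cuts open chromatin and the number of reads over a peak measures how accessible it is, and the comparison asked which sites were more or less accessible in HMGB2OE cells.

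As background, gene deserts are not empty of function. They are poor in GC bases, are often packed in compact chromatin at the nuclear edge, and hold distal enhancers, the regulatory elements that reach a promoter over long distances by looping of the chromatin fibre. Many deserts flank genes for developmental transcription factors and for adhesion molecules of neurons. AP-1, a dimer of FOS and JUN proteins, is a common occupant of distal enhancers in melanoma cells, and CTCF is the factor that anchors many chromatin loops. The stretches around centromeres and on the short arms of the acrocentric chromosomes also lack protein-coding genes, so they met the same rule although they are built largely of repeats.

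The central 300 bases of 9 desert peaks are printed from hg38, on the plus strand and 5′ to 3′. The first 4 are the largest rises in HMGB2OE cells and the next 4 the largest falls, among called peaks with a mean normalized count of at least 20 and conditions that did not overlap, and the last is the desert peak with the highest normalized count in empty vector cells. Capitals mark the AP-1 word TGANTCA, where N is any base, and the SOX-type word ACAANGG, read on either strand.
chr2:56522616-56522915: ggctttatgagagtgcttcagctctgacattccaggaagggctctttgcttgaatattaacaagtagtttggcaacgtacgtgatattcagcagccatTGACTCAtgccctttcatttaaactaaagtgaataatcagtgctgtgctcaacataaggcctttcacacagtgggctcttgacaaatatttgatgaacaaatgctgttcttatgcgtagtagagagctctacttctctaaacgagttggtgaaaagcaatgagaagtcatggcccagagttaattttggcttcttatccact
chr10:108904455-108904754: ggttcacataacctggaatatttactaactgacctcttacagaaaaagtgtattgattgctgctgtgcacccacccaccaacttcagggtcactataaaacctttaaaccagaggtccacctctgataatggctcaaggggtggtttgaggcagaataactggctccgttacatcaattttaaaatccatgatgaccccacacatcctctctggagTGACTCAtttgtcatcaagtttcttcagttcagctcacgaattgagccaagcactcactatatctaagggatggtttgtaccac
chr4:45554563-45554862: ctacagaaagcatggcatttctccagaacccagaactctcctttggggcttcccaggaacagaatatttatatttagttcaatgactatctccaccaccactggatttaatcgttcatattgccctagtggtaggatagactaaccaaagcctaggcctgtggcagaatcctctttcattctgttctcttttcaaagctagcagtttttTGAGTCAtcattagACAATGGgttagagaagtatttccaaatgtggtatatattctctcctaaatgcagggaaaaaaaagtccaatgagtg
chr4:67035568-67035867: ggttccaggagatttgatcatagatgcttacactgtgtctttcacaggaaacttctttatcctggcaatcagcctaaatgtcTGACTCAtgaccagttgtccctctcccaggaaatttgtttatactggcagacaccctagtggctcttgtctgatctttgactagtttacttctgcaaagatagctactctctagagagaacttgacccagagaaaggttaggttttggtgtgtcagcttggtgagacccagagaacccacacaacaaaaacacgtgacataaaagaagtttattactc
chr18:47522253-47522552: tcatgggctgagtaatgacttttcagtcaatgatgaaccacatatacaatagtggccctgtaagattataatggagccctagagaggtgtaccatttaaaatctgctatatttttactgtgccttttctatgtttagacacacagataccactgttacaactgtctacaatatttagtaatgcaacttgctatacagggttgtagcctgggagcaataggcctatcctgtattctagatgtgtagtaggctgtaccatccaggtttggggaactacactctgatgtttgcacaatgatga
chr10:8366212-8366511: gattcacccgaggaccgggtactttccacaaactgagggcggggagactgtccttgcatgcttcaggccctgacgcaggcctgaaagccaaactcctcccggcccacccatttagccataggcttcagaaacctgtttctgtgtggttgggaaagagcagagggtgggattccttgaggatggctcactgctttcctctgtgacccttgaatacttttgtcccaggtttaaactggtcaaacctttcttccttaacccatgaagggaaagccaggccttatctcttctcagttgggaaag
chr9:25935246-25935545: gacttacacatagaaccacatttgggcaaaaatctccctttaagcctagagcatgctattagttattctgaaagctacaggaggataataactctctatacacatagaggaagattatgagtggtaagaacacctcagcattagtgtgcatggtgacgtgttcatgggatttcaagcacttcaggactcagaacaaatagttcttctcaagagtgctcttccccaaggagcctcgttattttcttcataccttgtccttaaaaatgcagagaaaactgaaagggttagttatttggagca
chr7:49255140-49255439: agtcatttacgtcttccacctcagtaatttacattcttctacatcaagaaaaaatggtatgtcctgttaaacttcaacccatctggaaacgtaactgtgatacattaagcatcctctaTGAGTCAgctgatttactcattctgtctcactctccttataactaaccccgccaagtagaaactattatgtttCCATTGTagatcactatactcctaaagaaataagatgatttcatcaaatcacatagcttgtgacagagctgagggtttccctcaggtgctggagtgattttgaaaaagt
chr17:22521254-22521553: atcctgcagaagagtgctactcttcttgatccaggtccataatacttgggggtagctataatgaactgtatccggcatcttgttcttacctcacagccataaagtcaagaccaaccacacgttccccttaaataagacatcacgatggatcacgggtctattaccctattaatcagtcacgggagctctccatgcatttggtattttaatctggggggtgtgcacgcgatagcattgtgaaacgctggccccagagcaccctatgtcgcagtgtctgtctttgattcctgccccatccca
All 4 rising sequences held 1 AP-1 word within these bases, and 1 of the 4 falling sequences did. Over the whole length of the peaks, the third rising and the second falling one held 2 such words each. Over the same central 300 bases, the AP-1 word was present in 46.5% of the 331 desert peaks called higher, 43.9% of the 303 called lower, 35.6% of all tested desert peaks and 31.8% of all tested autosomal peaks. The SOX-type word was present in 19.6%, 17.2%, 19.7% and 17.4% of the same sets. A match is a run of letters and not a measured binding site.

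Between 26910189 and 45645294 reads per library fell in peaks. The median desert peak had 52 to 79 reads in a library, and its median normalized count (the count scaled to the mean effective library size) was 70.7 against 105 over all tested peaks. The spread was larger at low counts. The median within-group SD of the log2 normalized count was 0.356 for desert peaks with a mean of 20 to 50 and 0.140 for those with 200 to 500. The labels were checked on HMGB2 itself, where the larger change among 2 gene-body peaks was from a mean of 32.0 ± 15.7 to one of 98.4 ± 5.31 (SD over 3 libraries each, log2 fold change 1.67, adjusted p = 1.13e-04) and the promoter peak was at 1986 ± 223 and 1973 ± 59.0. Of 7 melanocyte lineage genes, SOX10, MITF, PMEL, MLANA and S100B had a promoter peak and TYR and DCT had none, while the 11 epithelial, fibroblast and neuronal genes examined and the immune genes PTPRC, CD3E and CD14 also had one, and none of these promoters was called. Reads from the construct and from the gene itself cannot be told apart at HMGB2.

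Few desert peaks were called. After edgeR's filter on low counts 12594 of the 13253 members were tested. A member could pass this filter through the counts of 1 condition alone. Of the 659 that did not pass, 550 lay in deserts with assembly gaps. A peak was called when its adjusted p was under 0.05 in edgeR's quasi-likelihood test and its fold change was at least 1.5. Of the tested desert peaks, 331 (2.63%) were called higher in HMGB2OE cells and 303 (2.41%) were called lower, where 1.87% and 1.44% of all 150117 tested peaks were. The median log2 fold change of desert peaks was -0.0016, beside -0.0049 over all tested peaks. The spread around it was wider, with a 5th and a 95th percentile of -0.66 and 0.63 in deserts and of -0.50 and 0.54 over all tested peaks.

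Every HMGB2OE library lay above every empty vector library at 1710 desert peaks (13.6%, against 12.6% of all tested peaks) and below every one at 1497 (11.9%, against 12.5%). Of the 634 called desert peaks, 623 had conditions that did not overlap, which the call rule itself makes likely. The called rises had a median log2 fold change of 0.79 and the called falls of -0.88. The most extreme called values were 2.20 and -2.42. Leaving out 1 library at a time gave between 225 and 329 rises, of which between 186 and 256 were among the 331 rises of all 6 libraries, and no called desert peak changed sign in any of these fits.

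Other peak classes had lower shares of calls. The share called higher was 0.885% of 36381 promoter peaks (within 3 kb of a protein-coding start), 2.21% of 46152 gene-body peaks and 2.2% of 49819 intergenic peaks nearer than the desert limit, and the share called lower was 0.695%, 1.56% and 1.61%. Counts per peak are part of this comparison. Within the class of 100 to 200 normalized counts, 3.97% of desert peaks were called higher and 4.10% lower, against 3.21% and 2.06% of gene-body and near-gene peaks. The gap in falls was smaller in the other classes. At 20 to 50 counts the shares were 1.57% higher and 1.71% lower in deserts against 1.42% and 1.22%, at 50 to 100 counts 3.81% and 2.79% against 3.09% and 2.05%, and at 200 to 500 counts 2.19% and 2.19% against 1.30% and 1.39%. The differences between classes were not tested.

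Shares of calls were also set out by distance from genes. Outside deserts with assembly gaps, 3.14% of the 5988 peaks at 250 to 500 kb from the nearest start were called higher, 2.96% of the 3376 at 500 kb to 1 Mb and 2.96% of the 1218 farther than 1 Mb. The shares called lower were 2.97%, 2.34% and 1.89%. At the limit itself, 8 of 419 members at 250 to 260 kb were called higher and 10 lower, and of 467 intergenic peaks just outside, at 240 to 250 kb, 16 were called higher and 12 lower. The nearest member to the limit, close to ZEB2, had 445 normalized counts in control cells and 429.8 in HMGB2OE cells.

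Many of these peaks lie in genes of another kind. Long non-coding RNAs (lncRNAs) are transcribed from deserts without coding for protein, and 996 members lay within 3 kb of a lncRNA start, 3553 elsewhere in a lncRNA gene and 8704 outside both. The 931 tested peaks at lncRNA starts had a higher median normalized count (107) than the 3475 in lncRNA bodies (76.4) and the 8188 outside lncRNAs (66.3). Calls were 20 higher (2.15%) and 20 lower (2.15%) at lncRNA starts, and 111 (3.19%) and 85 (2.45%) in lncRNA bodies. Outside lncRNAs they were 200 (2.44%) and 198 (2.42%). Over all tested desert peaks the shares were 2.63% and 2.41%, and over all tested peaks 1.87% and 1.44%. Of the 307 tested peaks centred in a lncRNA exon, 9 (2.93%) were called higher and 3 (0.977%) lower, and the differences between these groups were not tested.

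The largest rise among called desert peaks with a mean of at least 20 and conditions that did not overlap was on chromosome 2, 339 kb from the start of CCDC85A (chr2:56522515-56523016, the first sequence above). Its normalized counts were 45.9, 45.6 and 44.5 in empty vector replicates 1 to 3 and 163, 189 and 188 in HMGB2OE replicates 1 to 3 (log2 fold change 1.98 with a standard error of 0.170, adjusted p = 6.23e-08). The control libraries lay within 2 counts of each other, and all 3 HMGB2OE libraries were above 160. At the third rise, in the desert between GNPDA2 and GABRG1 on chromosome 4 (chr4:45554462-45554963), counts were 12.5, 6.88 and 23.4 and 45.9, 48.4 and 49.5 (log2 fold change 1.78 with a standard error of 0.368, adjusted p = 0.00309). GABRG1 encodes a subunit of the GABA receptor. The fourth rise lay between EPHA5, an ephrin receptor that guides axons, and CENPC, a centromere protein (chr4:67035467-67035968), with 70.9, 92.9 and 96.0 against 277, 259 and 260.1 (log2 fold change 1.60 with a standard error of 0.141, adjusted p = 1.03e-07). This peak and the one near CCDC85A were the most accessible of the 8 rises in HMGB2OE cells.

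The second rise was 966 kb from XPNPEP1, an aminopeptidase gene, on chromosome 10 (chr10:108904354-108904855), where 20.8, 6.88 and 29.3 counts in empty vector became 57.0, 59.2 and 76.6 in HMGB2OE cells (log2 fold change 1.81 with a standard error of 0.342, adjusted p = 0.00138). Empty vector replicate 2 was the lowest library there and at the GABRG1 peak. The other 4 rises were near FOXD4L5 on chromosome 9 (log2 fold change 1.54), RAPGEF2 on chromosome 4 (1.48), TDRD15 on chromosome 2 (1.45) and IRX1, a homeobox factor, on chromosome 5 (1.44). The peak near FOXD4L5 lay in a desert with an assembly gap, and 93.5% of its 31-base words (a sample of 1 in 8) occurred in another peak, so its reads may stem from more than 1 place. None of the other 7 rises shared a sampled word with another peak.

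The largest fall was near SKOR2, a corepressor of the SKI family, on chromosome 18 (chr18:47522152-47522653, the fifth sequence above), inside the lncRNA gene MIR4527HG. Empty vector libraries had 83.4, 59.4 and 73.7 normalized counts and HMGB2OE libraries 16.2, 8.34 and 15.8 (log2 fold change -2.42 with a standard error of 0.314, adjusted p = 2.32e-05). The second was 308 kb from GATA3, a zinc finger transcription factor, on chromosome 10 (chr10:8366111-8366612), with 57.0, 61.1 and 83.1 against 11.1, 17.5 and 19.1 (log2 fold change -2.08 with a standard error of 0.307, adjusted p = 9.62e-05). At both peaks the highest HMGB2OE library was below the lowest empty vector library, as the choice of peaks required. The third, near TUSC1 on chromosome 9 (chr9:25935145-25935646), had 139, 137 and 105 against 57.0, 16.7 and 24.8 (log2 fold change -1.93 with a standard error of 0.265, adjusted p = 4.57e-05), and HMGB2OE replicate 1 stood above the other two libraries of its condition. Without that library the log2 fold change was -2.64.

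Of the other 5 large falls, 4 were on the short arm of chromosome 7. The peak at chr7:49255039-49255540, between CDC14C and VWC2, had 65.3, 113 and 92.4 normalized counts in the control libraries and 28.1, 21.7 and 24.8 in HMGB2OE libraries (log2 fold change -1.87 with a standard error of 0.252, adjusted p = 3.68e-05). VWC2 encodes a secreted antagonist of bone morphogenetic proteins. A second peak of the same desert, at chr7:49401046-49401547, had a log2 fold change of -1.78. The next desert but one on that arm held the other pair, at chr7:53306846-53307347 (-1.71) and chr7:54179635-54180136 (-1.66). The remaining fall was 425 kb from ISL1, a LIM homeobox factor of motor neurons and heart, on chromosome 5 (chr5:51810487-51810988), with 106, 118 and 97.1 against 36.6, 27.5 and 36.0 (log2 fold change -1.69 with a standard error of 0.214, adjusted p = 1.73e-05). Each of these 16 peaks kept its call and direction with each library left out, with library size only, with GC-content offsets and with DESeq2.

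**Figure D1:**
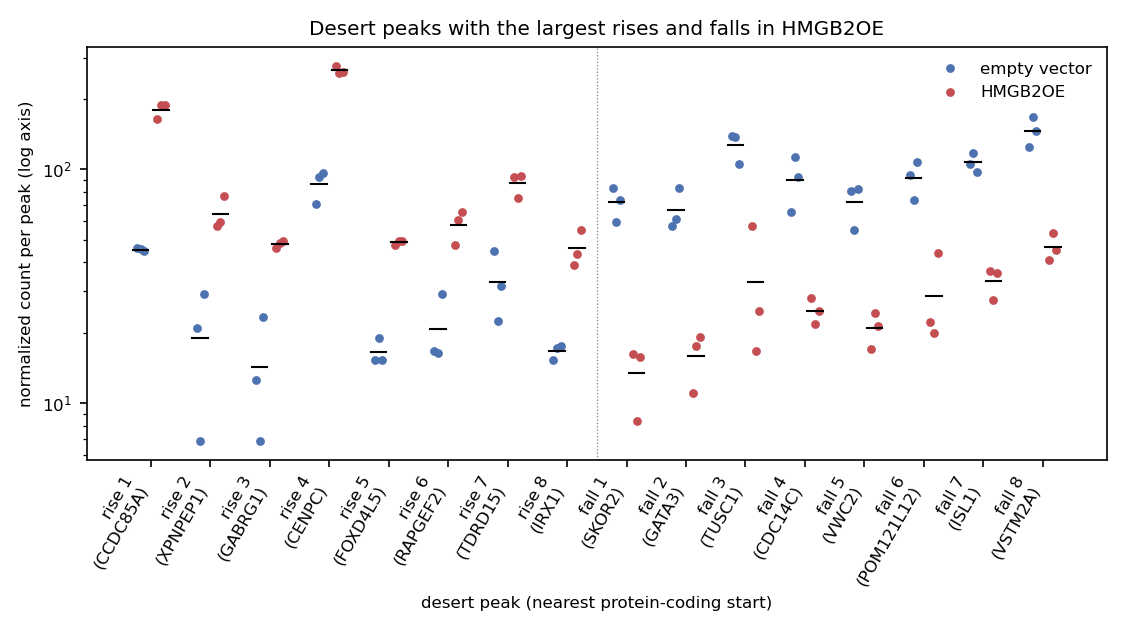
Normalized count of each library (points, log axis) and the mean of each condition (black bars) for the 8 rises and 8 falls of greatest size among called desert peaks with a mean of at least 20 and conditions that did not overlap, labelled by the nearest protein-coding start. The separation of the conditions was part of the choice of these peaks, and the means go from 45.3 to 179.9 at the first rise and from 72.2 to 13.4 at the first fall.

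Of the 5 desert peaks with the highest counts in empty vector cells, none was called. The peak near NFE2L3 on chromosome 7 (chr7:25862245-25862746) had 3202, 3374 and 3646 normalized counts in the control libraries and 3449, 3120.3 and 3255 in HMGB2OE libraries (log2 fold change -0.06 with a standard error of 0.0706, adjusted p = 0.697). Those near IRX1 on chromosome 5, near TRIML1 on chromosome 4 and near OR11H1 on chromosome 22 had log2 fold changes of 0.05, -0.0038 and 0.08, with adjusted p of 0.745, 0.989 and 0.573. In each of the 4 the libraries of the conditions overlapped. The peak on chromosome 22 lay 4462 kb from the start of OR11H1, its nearest protein-coding gene, in a desert with an assembly gap. Of its sampled words 67.2% occurred in another peak, so its reads may stem from several places.

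The highest of all stood apart. It lay in the desert between KCNJ18 and WSB1 on chromosome 17 (chr17:22521153-22521654, the last sequence above), and its counts were 4946, 3497 and 5784 in empty vector and 4824, 3889 and 8288 in HMGB2OE libraries (log2 fold change 0.26 with a standard error of 0.157, adjusted p = 0.369). HMGB2OE replicate 3 was the highest, and without it the log2 fold change was -0.12. Over a stretch of 479 bases this peak aligned to the circular mitochondrial genome of hg38 with 85.4% identity, whereas no other named peak aligned over more than 21 bases. Of the 31-base words of this peak, 2.33% occurred in the mitochondrial genome. Mitochondrial DNA is free of nucleosomes and is cut heavily by Tn5, and nuclear copies of it are common in human chromosomes. The source of the reads at this peak was not tested. Among all members, 40 held at least 1 word of 31 bases found in the mitochondrial genome.

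GC content went with the direction of change. Desert peaks called higher had a median GC content of 44.4%, those called lower 39.2%, and all tested desert peaks 41.2%. Of the 1219 desert peaks with under 35% GC, 0.820% were called higher and 4.68% lower. The order reversed with rising GC content. In the class of 45 to 50% GC, 4.37% of 1969 desert peaks were called higher and 1.57% lower. Across these classes the median value went from -0.15 in the first class to 0.08 in this one. Gene-body and near-gene peaks had the same order, with 0.349% and 4.75% under 35% GC and 2.88% and 1.13% at 45 to 50%.

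When each library's trend on GC content was removed by offsets, the falls in desert peaks under 35% GC went from 57 to 26 and the rises from 10 to 24. At 45 to 50% GC the shares were then 3.71% higher and 1.93% lower. Over all classes 301 of the 331 rises and 242 of the 303 falls kept their call with these offsets. Amplification and size selection of a library can favour DNA by its GC content, and their part in the trend was not tested.

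**Figure D2:**
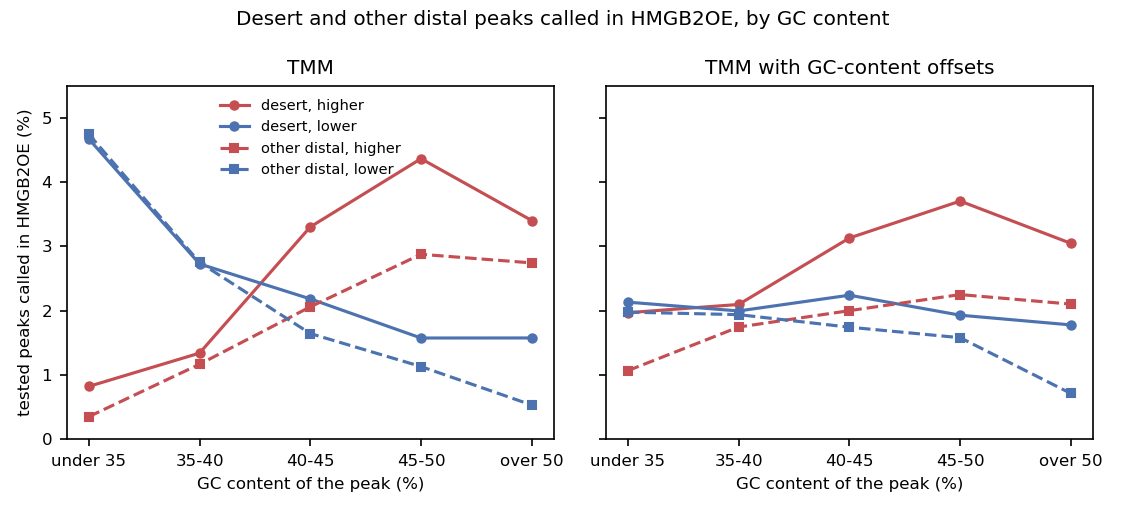
Percent of tested peaks called higher (red) and lower (blue) in HMGB2OE cells in 5 classes of GC content, for desert peaks (circles, solid lines) and for gene-body and near-gene peaks (squares, dashed lines), with TMM scaling on the left and with added GC-content offsets on the right. Falls lead under 35% GC and rises lead above 40% GC on the left, and on the right the shares called lower in deserts lie between 1.78% and 2.24%.

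Short sequence words were counted on both strands of each whole peak, and 1 stretch of bases could count for several words. The AP-1 word was in 52.9% of desert peaks called higher, 49.5% of those called lower, 40.9% of tested desert peaks and 36.4% of all tested peaks. Without the deserts that hold assembly gaps, where few calls lay, the share among tested desert peaks was 46.0%. The TEAD word GGAATG was in 34.1%, 35.3%, 29.4% and 29.0% of these sets. Both words were thus at similar shares in rises and falls. The AP-1 word was in 41.3% of gene-body and near-gene peaks, close to the share of tested desert peaks, and in 22.3% of promoter peaks. The octamer word of POU factors, ATGCAAAT, was in 3.02% of the rises and 6.6% of the falls, against 3.73% of tested desert peaks and 3.08% of all tested peaks. These were 10 and 20 peaks, and the median GC content of the tested desert peaks that held it was 39.8%.

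The CTCF word CCANNAGNNGGC was less frequent in deserts (4.82%) than over all tested peaks (7.44%), and 3.32% of rises and 2.31% of falls held it. The E-box CACGTG was in 4.53% of rises and 4.62% of falls (5.06% of tested desert peaks, 6.85% of all). The forkhead word TGTTTAC was in 9.67% and 12.5% (10.3% and 8.05%), and the SOX-type word in 29.9% and 25.4% (27.8% and 24.9%). The shares are descriptions and were not tested.

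Called peaks were spread over 309 deserts, of which 152 held a single called peak. In the 157 deserts with at least 2 called peaks, all calls were rises in 56, all were falls in 42, and 59 held both. To test deserts as a whole, counts were summed over the tested peaks of each desert with at least 5, and over 1 Mb windows of all other autosomal peaks. Of 501 deserts, 56 (11.2%) had a higher sum in HMGB2OE cells and 43 (8.58%) a lower one at an adjusted p under 0.05 in edgeR's quasi-likelihood test, where 4.67% and 5.41% of all 2978 units were called. The 2978 units include the 501 deserts. The others are windows that mix promoter, gene-body and near-gene peaks, so these shares are not of like units. The difference between them was not tested. The split of the deserts depended on the scaling, with 86 higher and 33 lower for library size only and 78 and 36 with GC-content offsets.

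The changes of whole deserts were small. The called deserts had a median log2 fold change of 0.24 when higher and -0.23 when lower, and 3 of the 99 passed a fold of 1.5. In 27 of them no single peak was called. The libraries of the conditions did not overlap in 54 of the higher and 41 of the lower deserts, which the call itself makes likely. The largest rise of a sum, chosen after its value was seen, was in the desert between NAALADL2 and TBL1XR1 on chromosome 3 (chr3:175810549-176776414), with 250, 206 and 224 counts in empty vector and 380, 314 and 381 in HMGB2OE libraries over 5 peaks (log2 fold change 0.67 with a standard error of 0.124, adjusted p = 5.53e-04). In the desert between ZSWIM6 and KIF2A on chromosome 5 (chr5:61582259-62056161), also chosen after its value was seen, 24 of 27 peaks had a log2 fold change above 0, and the sum went from 3682, 3625 and 3635 to 4689, 4343 and 4224 (log2 fold change 0.28 with a standard error of 0.0450, adjusted p = 1.29e-04).

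**Figure D3:**
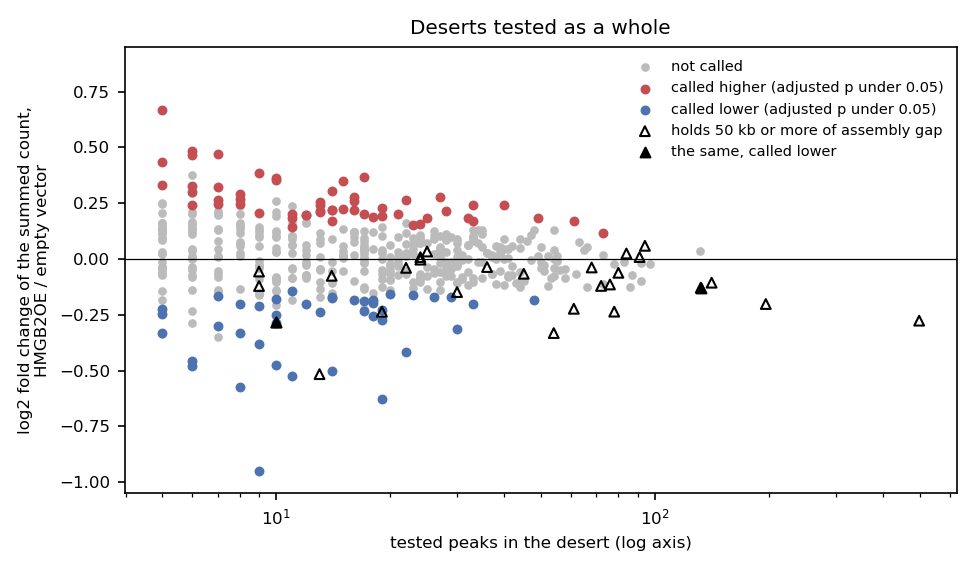
Log2 fold change of the summed count of each of 501 deserts against the number of its tested peaks (log axis), with called deserts in red when higher and blue when lower, and triangles for deserts with at least 50 kb of assembly gap (filled when called). Called deserts lie between -0.95 and 0.67, and of the 5 deserts with over 100 tested peaks 4 are triangles.

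The 2 deserts with the largest falls in their sums lay on the short arm of chromosome 7. The desert between POM121L12 and VSTM2A (chr7:53285634-54292324) held 19 peaks, all tested, of which 12 were called lower and 0 higher, with a median log2 fold change of -1.14. Its summed normalized counts were 3682, 4087 and 3984 in empty vector and 2591, 2567 and 2460 in HMGB2OE libraries (log2 fold change -0.63 with a standard error of 0.0450, adjusted p = 1.73e-10). All 3 HMGB2OE sums were below all 3 control sums, and the call held with each library left out (log2 fold change -0.67 to -0.59). A single member had a value above 0, at chr7:53811602-53812103. It was the most accessible and, at 62.0% GC, the most GC-rich peak of the desert, and its counts were 860.3, 938 and 903 in empty vector and 994, 1066 and 987 in HMGB2OE libraries (log2 fold change 0.17, adjusted p = 0.221).

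The peak at chr7:54260693-54261194 had 428, 490.4 and 472 normalized counts in the control libraries and 185, 176 and 142 in HMGB2OE libraries (log2 fold change -1.46 with a standard error of 0.119, adjusted p = 4.08e-08). The peak at chr7:53984731-53985232 had 192, 200.5 and 194 against 73.1, 60.1 and 77.7 (-1.48, standard error 0.154, adjusted p = 1.38e-06). The fall did not stop at the limits of the desert. Within 1 Mb on either side, 17 of 69 peaks that were not desert members were called lower and 2 higher, and between 53 and 54 Mb all 6 such peaks were called lower (median log2 fold change -1.47). Farther along, between 55 and 56 Mb, 0 of 61 were called lower and the median was 0.04. Read counts depend on both the amount of DNA and its accessibility, which cannot be told apart here.

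**Figure D4:**
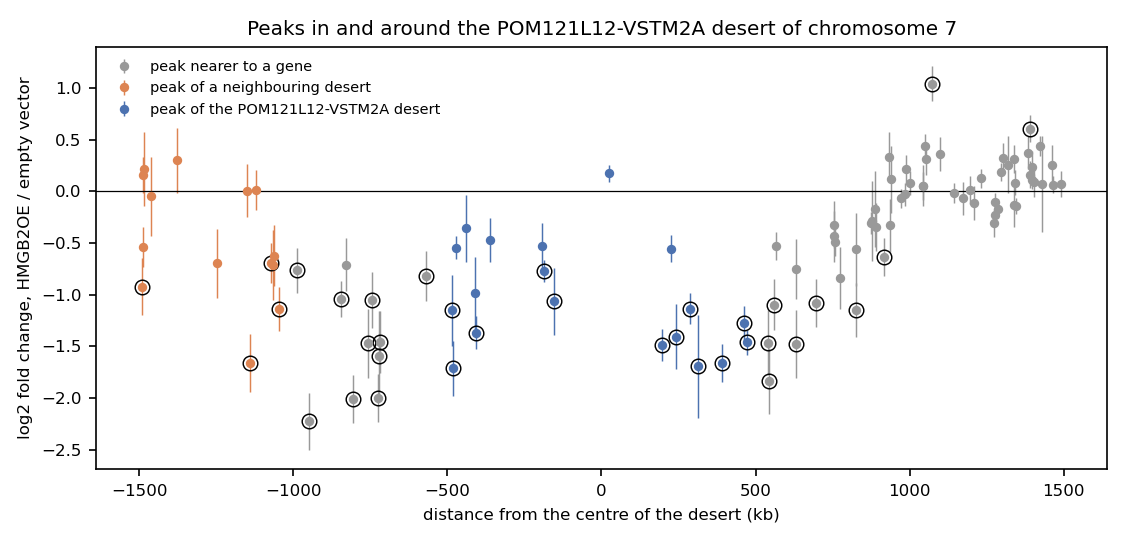
Log2 fold change with its standard error for the tested peaks within 1 Mb of the POM121L12 to VSTM2A desert, by distance from its centre in kb (blue for this desert, orange for the neighbouring desert, grey for peaks nearer to a gene, black rings for called peaks). Of the blue points 12 are ringed and below 0, and the grey points next to them lie below 0 as well, while those at the right end scatter around 0.

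The other one, between CDC14C and VWC2 (chr7:49174548-49523637), was chosen after its values were seen. All 9 of its peaks had negative values and 5 were called lower. The sums were 842, 814 and 910 in empty vector and 434, 429 and 466 in HMGB2OE libraries (log2 fold change -0.95 with a standard error of 0.0821, adjusted p = 4.65e-09). Between these deserts lies that of COBL and POM121L12 (chr7:51566819-52785632), where 4 of 50 peaks were called lower and 1 higher and the sums were 7352, 7509 and 7267 against 7653, 7747 and 7580 (log2 fold change 0.05 with a standard error of 0.0461, adjusted p = 0.499). Its 4 falls all lay between 52 and 53 Mb, at the end towards the POM121L12 to VSTM2A desert. In that window 4 of 5 peaks outside deserts were called lower too. Of the 303 desert falls 36 were on chromosome 7, where 6.87% of tested desert peaks were called lower.

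Other deserts with many tested or many called peaks changed in part. As a measure, 2.63% of all tested desert peaks were called higher and 2.41% lower. Of all tested peaks, 1.87% and 1.44% were. The desert between AGA and TENM3 on chromosome 4 (chr4:177692438-181893986) was the largest without an assembly gap by number of peaks, and 7 of its 131 tested peaks were called higher and 2 lower. TENM3 encodes a teneurin, an adhesion protein that matches neurons to their partners. The sums, 20749, 22056 and 20824 against 22056, 22113 and 21046, did not differ beyond their spread (log2 fold change 0.04 with a standard error of 0.0395, adjusted p = 0.624). In the desert between TMEM132B and TMEM132C on chromosome 12 (chr12:125872497-128017169), 6 peaks of 97 were called higher and 2 lower, and the sums overlapped as well (log2 fold change -0.02 with a standard error of 0.0385, adjusted p = 0.761). The desert between PCDH7 and ARAP2 on chromosome 4 (chr4:31175714-35796033) had 2 rises and 2 falls among 92 peaks (log2 fold change -0.02 with a standard error of 0.0366, adjusted p = 0.795).

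On chromosome 7 the desert between IGFBP3 and TNS3 (chr7:46171875-47030317) had 5 falls and 2 rises among 45 peaks, with sums of 11541, 12723 and 12008 against 11556, 11476 and 10868 (log2 fold change -0.10 with a standard error of 0.0400, adjusted p = 0.119). Its adjusted p passed the threshold without empty vector replicate 1 (0.0476) and with TMM computed on the sums (0.0462), and with no other setting tried. The desert between MYC, the oncogene whose distal enhancers lie on both sides of it, and GSDMC on chromosome 8 had 5 falls and 2 rises among 87 peaks and sums of 16377, 17755 and 17173 against 16798, 16308 and 15701 (log2 fold change -0.07 with a standard error of 0.0380, adjusted p = 0.236). The desert between CSMD1 and MCPH1 on the same chromosome was the one of these 3 that changed as a whole. There 7 of 14 peaks were called lower, 12 had negative values, and the sums went from 1174, 1334 and 1278 to 905, 857 and 918 (log2 fold change -0.50 with a standard error of 0.0663, adjusted p = 1.00e-05). Its flanks within 1 Mb had 1 fall and 0 rises among 53 peaks.

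The largest deserts by number of peaks were of the other kind, around centromeres and on short arms. In all, 2562 members lay in 29 deserts that hold at least 50 kb of assembly gap, and 2012 were tested. On average 53.3% of their sampled 31-base words occurred in another peak, against 5.61% in the other deserts, so a read there can match several places. Of these peaks 7 were called higher and 23 lower (0.348% and 1.14%), with a median log2 fold change of -0.19. Both shares were below those of all tested peaks, 1.87% and 1.44%. In the other deserts 324 (3.06%) and 280 (2.65%) of 10582 were called and the median was 0.03. GENCODE does not class antigen receptor segments as protein-coding, and the rule did not exclude them. Of the members 289 lay within 250 kb of one, and 232 of these were tested. Of the tested ones 3 (1.29%) were called lower and 0 higher, where 1.44% and 1.87% of all tested peaks were.

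Libraries of 1 condition were far apart in some of these repeat-rich deserts. The desert around the centromere of chromosome 1, between SRGAP2C and H3-7 (chr1:121437103-143655792), had 498 tested peaks, 420 of them with negative values, and 1 called. Its summed counts were 52721, 15904 and 33431 in empty vector and 22929, 20550 and 40733 in HMGB2OE libraries (log2 fold change -0.28 with a standard error of 0.224, adjusted p = 0.478). The control libraries alone spanned more than the distance between the conditions. Leaving out empty vector replicate 2 brought the log2 fold change to -0.62 (adjusted p = 0.00194), leaving out empty vector replicate 1 to 0.19 (0.692), and leaving out HMGB2OE replicate 1 to -0.15 (0.0358). The start of chromosome 13 (chr13:1-18931823) and the desert between ZNF337 and DEFB115 on chromosome 20 (chr20:25946854-31007663) passed the threshold without empty vector replicate 2, with log2 fold changes of -0.45 and -0.20 against -0.20 and -0.11 with all libraries. Without empty vector replicate 1 the values were 0.10 (adjusted p = 0.731) and -0.00722 (0.95). The desert between RPIA and AQP7B on chromosome 2 (chr2:88941674-94337100) had sums of 7980, 7294 and 8070 against 8064, 7573 and 8681 over 94 tested peaks (log2 fold change 0.06 with a standard error of 0.0536, adjusted p = 0.534).

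The start of chromosome 21 up to TPTE (chr21:1-10271552) held the most called peaks of any desert, 15 falls among 132 tested of 299 members. Its sums were 16732, 15635 and 16696 in empty vector and 15389, 14032 and 15456 in HMGB2OE libraries (log2 fold change -0.13 with a standard error of 0.0400, adjusted p = 0.0384). These sums lay close together, and on average 55.6% of the sampled words of its peaks occurred elsewhere. The call was lost without empty vector replicate 1 (adjusted p = 0.113), without empty vector replicate 3 (0.069), without HMGB2OE replicate 2 (0.321), with library size only (0.14) and with TMM computed on the sums (0.121).

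The share of all peak counts that fell in desert peaks was 5.03%, 4.79% and 4.84% in empty vector replicates 1 to 3 and 4.92%, 4.89% and 4.94% in HMGB2OE replicates 1 to 3. The means, 4.89% ± 0.127 and 4.92% ± 0.0271 (SD, n = 3 each), did not differ beyond the spread between libraries (2-sided exact permutation p = 0.8, where 3 libraries against 3 cannot give less than 0.1). Without the deserts with assembly gaps the means were 4.31% ± 0.0513 and 4.38% ± 0.0686 (exact permutation p = 0.3). The share in deserts with assembly gaps was 0.722%, 0.428% and 0.580% in empty vector and 0.498%, 0.463% and 0.638% in HMGB2OE libraries (exact permutation p = 0.7). It was highest in the 3 libraries with the fewest reads in peaks, and the part of depth in it was not tested.

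**Figure D5:**
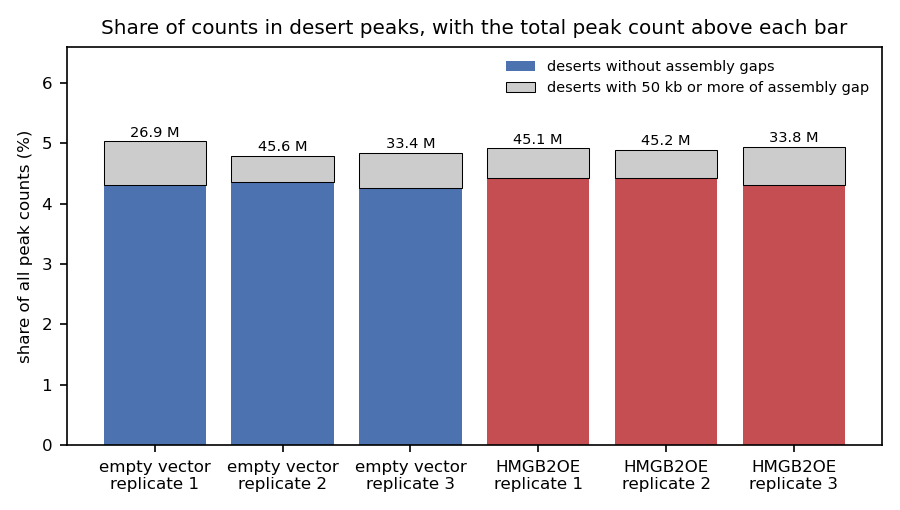
Share of each library's peak counts in desert peaks, as stacked bars from 0, split into deserts without assembly gaps (blue for empty vector, red for HMGB2OE) and deserts with at least 50 kb of assembly gap (grey), with the library's total peak count printed above each bar. The coloured parts lie between 4.26% and 4.42%, and the grey parts between 0.428% and 0.722%.

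Desert peaks were also grouped by the gene with the nearest protein-coding start, which is a landmark and not a known target. Cadherins and protocadherins, the calcium-dependent adhesion proteins, were the nearest gene of 463 tested desert peaks, of which 17 (3.67%) were called higher and 19 (4.10%) lower, with a median log2 fold change of 0.07. Genes named within the lists were chosen after their values were seen. PCDH7 had 4 rises and 0 falls among 57 peaks (median 0.27), PCDH9 4 and 0 among 36 (median 0.17) and CDH11, a mesenchymal cadherin, 3 and 0 among 51 (median 0.25), whereas PCDH10 had 0 rises and 4 falls among 34 (median 0.02). CDH2, the N-cadherin of invasive cells, had 1 rise and 2 falls among 29.

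Developmental and neural crest transcription factors were nearest to 446 tested desert peaks, with 18 (4.04%) called higher, 15 (3.36%) lower and a median of 0.05. Within it ID2, an inhibitor of basic helix-loop-helix factors, had 3 rises among 12 peaks and no fall (median 0.45), TBX3 had 3 falls among 17 and no rise, and NR2F2, an orphan nuclear receptor, had 1 rise and 4 falls among 49 (median -0.20). Axon guidance genes had 13 rises (3.90%) and 5 falls (1.5%) among 333 peaks (median 0.02). Of these the semaphorin receptor genes NRP1 and PLXNA2 had 2 rises each and no fall, among 13 and 12 peaks.

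Synaptic adhesion genes, such as the contactins, teneurins and SLITRK genes, were nearest to 552 tested peaks, and 8 (1.45%) were called higher and 9 (1.63%) lower (median 0.03). FLRT2 (59 tested peaks), SLITRK5 (42) and SLITRK1 (41) had medians of 0.09, 0.01 and 0.06. Growth and oncogene loci had 3 rises (1.90%) and 5 falls (3.16%) among 158 peaks, of which MYC alone had 1 and 5 among 43. Desert peaks nearest to genes on none of the lists had 2.56% called higher and 2.35% lower (median -0.01). The shares of the lists were not tested against each other.

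Outside these lists, and chosen after their values were seen, the nearest genes with the most rises were TBL1XR1, a subunit of a corepressor complex, with 7 among 24 peaks (median 0.35) and TMEM132C with 5 among 59 (median 0.17), both with no fall. TPTE, POM121L12 and VSTM2A had the most falls, 15, 9 and 7, among 132, 26 and 9 peaks, and no rise. The TPTE peaks are those of the repeat-rich desert at the start of chromosome 21, whose call as a whole was lost in several settings. Rises made up 2.63% of tested desert peaks and 1.87% of all tested peaks, and falls 2.41% and 1.44%. LMO3, a LIM-only factor of neurons, had 4 falls among 14 (median -0.77).

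Direction also varied between chromosomes. Over all tested desert peaks 2.63% were called higher and 2.41% lower, and over all tested peaks 1.87% and 1.44%. On chromosome 13, 26 desert peaks of 857 tested (3.03%) were called higher and 3 (0.350%) lower. On chromosome 4 these were 47 (4.03%) and 14 (1.20%) of 1165. Falls led on chromosome 7 (36, 6.87%, against 13 rises, 2.48%, of 524) and chromosome 8 (36, 4.81%, against 14, 1.87%, of 749). They also led on chromosome 21 (21, 6.67%, against 3, 0.952%, of 315). Single deserts held many of these falls. The repeat-rich desert up to TPTE held 15 of the 21 on chromosome 21. On chromosome 7 the POM121L12 to VSTM2A desert held 12 and the CDC14C to VWC2 desert 5. The median log2 fold change by chromosome ranged from -0.12 to 0.06. These chromosomes were chosen after their values were seen, and differences between chromosomes were not tested.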

How the data were processed

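ATAC-seq was performed by the authors on A375 cells with empty vector or HMGB2OE (3 libraries each). Per the labels and the study's methods, reads were trimmed with Trim Galore (0.6.7, with cutadapt 4.0), checked with FastQC (0.12.1) and aligned to hg38 with Bowtie 2, duplicates were removed with Picard, peaks were called with MACS2 against a public melanocyte dataset as control, blacklisted regions were dropped, peaks within 500 bp were merged into a single atlas, and featureCounts gave the deposited raw counts per peak. The treatment of reads that match several places, any Tn5 shift, and whether peaks were called per library are not given in the sources used here.

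From these counts, edgeR (4.0.16, R 4.3.3) was run on all 6 libraries with TMM scaling, filterByExpr and the quasi-likelihood test, with Benjamini-Hochberg adjustment over 150117 peaks. Total counts per library were 26910189 to 45645294. A normalized count is the count scaled to the mean effective library size. DESeq2 (1.42.0) was an alternative, and its missing adjusted p-values stayed missing. GC-content and loess offsets were fitted with limma (3.58.1). Sums per desert or 1 Mb window were fitted in the same way, and the scripts were tested on simulated data. Sequences were read from hg38, and peaks were aligned to the mitochondrial genome with Biopython (1.88). Libraries of a condition differed beyond sampling noise, so each was counted separately. Settings tried were other scalings, filters, fold and distance limits, the replicate block and leaving out each library.

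Named peaks were the 8 members with the greatest rise and the 8 with the greatest fall, taken from called ones with a mean of at least 20 and conditions that did not overlap, and the 5 with the highest count in empty vector cells. Named deserts were the 8 with the most tested peaks and the 6 with the most called ones. The members and the gene lists were chosen with earlier results of these data known.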

Additional observations from a re-analysis of the deposited data

How the results depend on the processing

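Counts of called desert peaks depended most on the definition of a call and of a desert. With a lower fold limit there were 503 rises and 471 falls, and with no fold limit 509 and 478. A distance limit of 100 kb gave 701 and 522, a limit of 500 kb 140 and 121, and leaving out lncRNAs 200 and 198. Each of these settings admits more or fewer peaks by construction. Every other scaling, filter and test kept both counts within 1.5 times, and DESeq2 gave 255 and 234. Leaving out 1 library at a time gave 225 to 329 rises and 219 to 322 falls.

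The median log2 fold change of desert peaks, -0.0016, moved by more than the SD of the per-library medians to 0.0195 with library size only, to 0.0185 with the replicate block and GC-content offsets, to 0.0185 with the 100 kb limit, to -0.0318 with the 500 kb limit and to -0.0233 outside lncRNAs, and ranged from -0.0175 to 0.0515 with 1 library left out. It was 0.0328 without assembly-gap deserts and 0.0320 for peaks with under 10% shared words, both settings added after the data were seen, as was the one without chromosome 7 (318 rises and 267 falls). The cause was not tested. The difference in the share of counts, HMGB2OE minus empty vector, was 0.0257 percentage points, -0.00740 with the 500 kb limit, -0.0136 outside lncRNAs and between -0.0226 (without empty vector replicate 2) and 0.0977 with 1 library left out.

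Whether the replicate numbers pair the samples could not be settled from the counts. Correlations of same-numbered libraries' deviations from their group means were -0.09, 0.19 and 0.13. Empty vector replicates 2 and 3 correlated best with the HMGB2OE library of their own number. Empty vector replicate 1 correlated best with HMGB2OE replicate 3 (0.16). With the replicate block there were 382 rises, 326 falls and 152 called deserts, against 99 without it. The block called the gap deserts of chromosome 1 between SRGAP2C and H3-7 (log2 fold change -0.17, adjusted p = 0.00346) and at the start of chromosome 13 (-0.16, 0.00721), which were not called without it. There were 82 to 107 called deserts with 1 library left out. The 16 called named peaks kept their call in all 160 refits. Depth limits the shallow members, where the spread between libraries is largest.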
